A study of Rattus norvegicus with 24 samples.

Results

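The genes described here are those whose RNA was at least 4-fold lower in glutamate than in medium over all libraries of the study. A gene was a member if its mean level over the 12 medium libraries was at least 1 CPM (the raw count over the library's total count, times 1e+06, a level scaled to the library's depth) and its mean CPM over the 12 glutamate libraries was at most 0.25 of that mean. Of 32754 gene rows, 13313 reached a mean of 1 CPM in medium, and 56 of these were members. The fall in glutamate chose the members, so its size is given as a description and was not tested.

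The libraries came from rat cortical cells plated as neurons and cultured for 8 days. They then received either new growth medium or glutamate at 250 μM, and were followed by imaging over 4 h. The labels do not say when RNA was taken. Treatments were DMSO, the solvent control, and the agents IS141, AH609 and AH236, which are code names given without dose or timing. The 8 groups were thus DMSO, IS141, AH609 and AH236 in medium and the same 4 treatments in glutamate, with 3 libraries each, and nothing says whether the 3 were separate cultures. The 24 libraries held between 22509400 and 35496447 counts. DMSO replicate 1 in medium lay farthest from the others of its group. Over the genes with at least 1 CPM in medium, its median absolute log2 ratio to their mean was 0.18, against 0.06 to 0.13 in the other 23 libraries, and values without it are given where it changes a call or a statement.

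Glutamate is the main excitatory transmitter of the cortex, and its sustained excess injures neurons by overactivating their receptors and letting in calcium, a process called excitotoxicity. The level of an RNA reflects how fast it is made and how fast it is degraded, and transcripts with short lifetimes fall soonest once their synthesis slows. In bulk RNA, fewer cells of a type and less RNA per cell cannot be told apart. The count table gives Ensembl rat gene IDs, and 0 of them could be paired with a gene symbol here. The members are therefore numbered 1 to 56 from the lowest ratio to the highest, nothing is said of what they encode, and cell type markers could not be checked.

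Most members were scarce RNAs. Their mean CPM in medium ran from 1.02 to 156 with a median of 3.72, where the median of all 13313 genes with at least 1 CPM in medium was 22.7. A mean under 5 CPM was found for 30 members, 13 lay between 5 and 20 CPM, 11 between 20 and 100 CPM, and 2 above 100 CPM. In glutamate the means ran from 0.118 to 38.5 CPM with a median of 0.773. The ratios ran from 0.0972 to 0.246 with a median of 0.214, and 17 members had a ratio of at most 0.2. The median ratio of all 13313 genes was 0.861 on the same scale.

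The members bunched against the threshold. The 3 just inside it had ratios of 0.245, 0.2457 and 0.2463, and the 3 genes just outside had 0.2508, 0.252 and 0.2524. At the other threshold, the 3 members with the lowest level in medium had 1.02, 1.03 and 1.07 CPM, and 3 genes with a ratio under 0.25 were left out at 0.989, 0.953 and 0.902 CPM. The list also depended on scaling. With library sizes scaled by TMM (trimmed mean of M-values, which centres most genes on no change), 32 of the 56 members remained under 0.25 and no other gene joined them.

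In 55 of the 56 members every medium library was above every glutamate library. Of all genes with at least 1 CPM in medium, 33.4% were separated in this way, but the rule used this contrast and nothing is read from the count. The exception was member 28, whose lowest medium value was 0.616 CPM, in AH236 replicate 1, and whose highest glutamate value was 0.641 CPM, in DMSO replicate 1. The heatmap of all members by library shows the separation as a step between the medium and the glutamate columns.

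**Figure D1:**
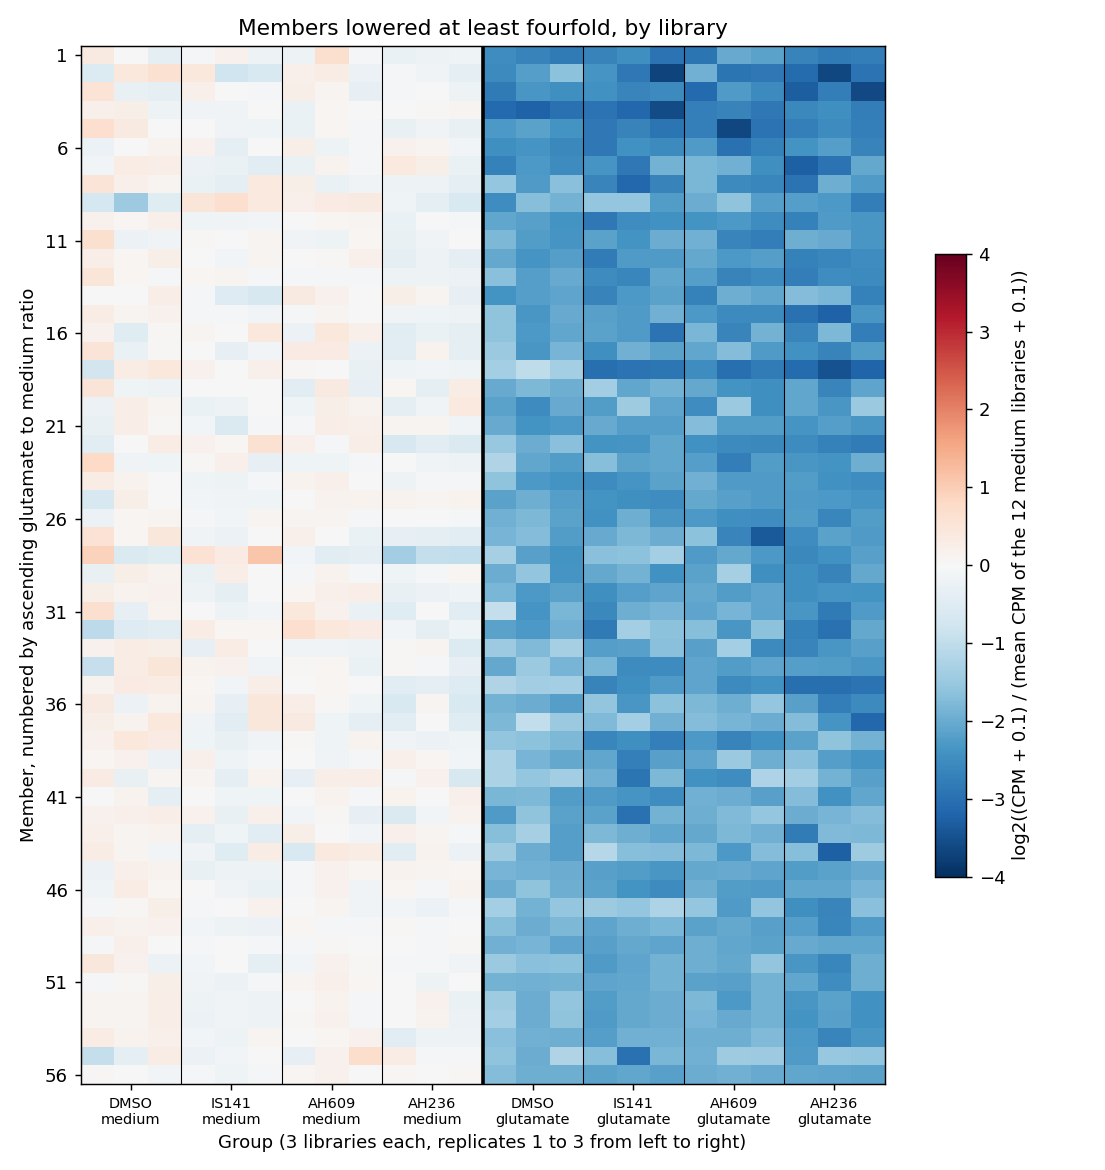
Level of each of the 56 members (rows, numbered by ascending ratio) in each of the 24 libraries (columns, grouped by treatment and medium), as log2 of CPM plus 0.1 over the member's mean CPM in medium plus 0.1. Blue is lower than the medium mean; the 12 glutamate columns are blue in all rows, and in rows 18 and 35 the 3 DMSO glutamate columns are paler than the 9 agent columns beside them.

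The member with the lowest ratio, member 1, had a median of 1.10 CPM over the medium libraries, with a lowest value of 0.933 and a highest of 1.96. In glutamate its median was 0.105 CPM, with a range from 0.069 to 0.222 CPM. That is a mean of 3.42 counts per glutamate library, against 33.2 in medium, so its low end is set by a handful of counts. Member 4 combined a low ratio, 0.127, with a level that was well counted in medium. It had a median of 10.7 CPM there (8.78 to 12.5) and of 1.34 CPM in glutamate (0.794 to 1.88), which is a mean of 294 and 38.8 counts.

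The most abundant members were 56 and 30. Member 56 had a median of 158 CPM in medium (137 to 178) and of 37.6 CPM in glutamate (34.8 to 47.3). Member 30 had 148 CPM in medium (111 to 174) and 30.8 CPM in glutamate (26.1 to 40.7). Together all members held between 827 and 1035 CPM of a medium library and between 174.9 and 276 CPM of a glutamate library. Members 52 and 53 had almost the same counts. They differed by at most 7 counts in any library, at counts between 27 and 236, and were equal in 2 libraries. Whether the pair shares reads was not tested, and their separate values are uncertain.

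Spread between replicates was wider for members than for genes with at least 1 CPM in medium as a whole. The median coefficient of variation (CV) of members within a group lay between 8.22% and 16.2% in medium and between 16.9% and 18.5% in glutamate. For all those genes it lay between 5.14% and 9.11% in medium and between 5.41% and 7.06% in glutamate. Counting error alone would give medians for the members between 9.29% and 9.95% in medium and between 18.6% and 21.9% in glutamate. In glutamate, 10 members had a mean under 10 counts per library and 32 a mean under 30, so differences between treatments there could be measured well for only part of the list. No member was at 0 counts in any library.

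The ratios within each treatment are a description, since the same values chose the list. In DMSO cultures the median ratio of the members was 0.242, and 34 of 56 were at or under 0.25. The median was 0.213 in IS141 cultures, with 44 members at or under 0.25. In AH609 and AH236 cultures it was 0.197 and 0.195, each with 52 members at or under 0.25. All 56 members were at or under 0.5 in every treatment, and 23 were at or under 0.25 in all 4. The highest ratio of the 4 treatments was in DMSO for 29 members, or 51.8%, where it was in DMSO for 30.2% of genes with at least 1 CPM in medium. The lowest was in AH236 for 27 members, or 48.2%, against 33.7% of those genes. The DMSO median without DMSO medium replicate 1 was 0.239, with 33 members at or under 0.25 and DMSO highest for 30.

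**Figure D2:**
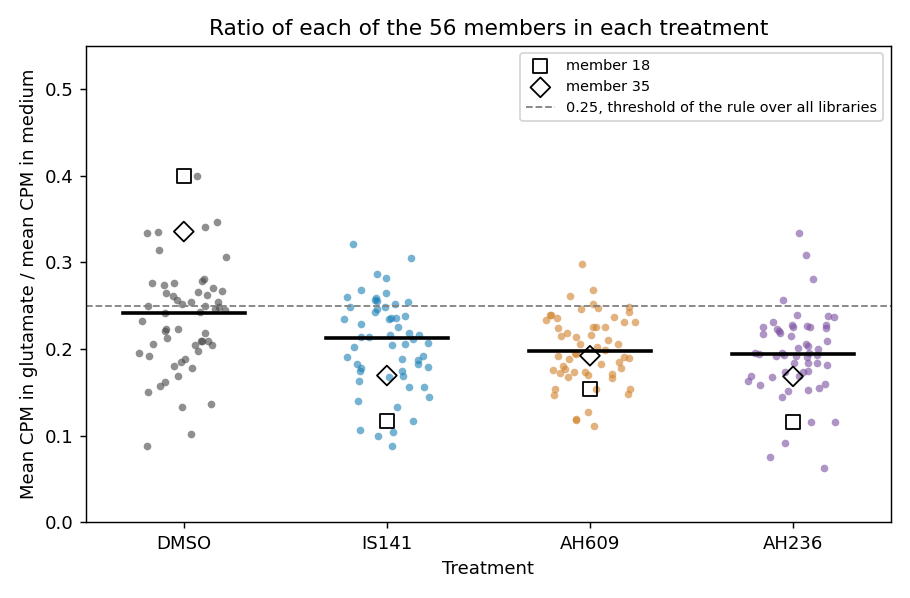
Ratio of mean CPM in glutamate to mean CPM in medium (vertical axis) for each of the 56 members in each of the 4 treatments (points), with the median as a black bar and the threshold of 0.25 as a dashed line. The median is 0.242 in DMSO and 0.195 in AH236. In the DMSO column member 18 (square) is the highest, at 0.400, and member 35 (diamond) is at 0.336. Both lie below the median in each agent's column, member 35 only just so with AH609 (0.192 against 0.197).

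The choice of members leaned on the agents. Of the 12 libraries behind each mean, 9 were from agent cultures and 3 from DMSO cultures, so a gene that fell further with the agents met the rule more easily than one that fell further with DMSO. A higher ratio in DMSO is therefore partly built into the list, and differences between an agent and DMSO are not wholly independent of the rule. As a check added after the data had been seen, the rule was also applied to the libraries of DMSO and 1 agent alone, where both weigh alike. That chose 53 genes for IS141, 56 for AH609 and 58 for AH236, of which 41, 44 and 49 were among the 56 members.

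Summed over members, levels were lower with the agents than with DMSO in glutamate. The sum was 254 ± 19.6 CPM (SD, n = 3) with DMSO, 189.6 ± 8.80 CPM (SD, n = 3) with IS141, 206 ± 9.60 CPM (SD, n = 3) with AH609 and 179 ± 4.11 CPM (SD, n = 3) with AH236. All 9 agent libraries, at most 217 CPM, were below all 3 DMSO libraries, at least 238 CPM. The rule used these same glutamate values, and members 18 and 35 add to the gap, so it is a description only. The sums are on library totals and were not repeated for the balanced choices. In medium the sums were 1002 ± 34.8, 880 ± 50.2, 979 ± 31.1 and 869 ± 5.10 CPM (SD, n = 3) in the same order, and AH609 overlapped DMSO. A few abundant members carry most of each sum.

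Each agent was then compared with DMSO gene by gene, with edgeR's quasi-likelihood test on TMM-scaled counts in 1 fit of all 24 libraries. All 56 members were among the 15908 genes tested. A gene was called at a Benjamini-Hochberg adjusted p under 0.05 over all genes tested. Over the 6 comparisons of an agent with DMSO, 22 members were called at least once and 34 never. Of the 38 calls, 33 were lower with the agent and 5 higher, and 11 were of at least 2-fold. The same counts were not taken over all genes tested, so nothing about the members is read from them. Shares beside those of all genes follow for each comparison. All 3 comparisons in a medium use the same DMSO libraries, and their calls are not independent.

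In glutamate, 6 members were called lower with IS141 and 0 higher. That is 10.7% of the members, where 8.47% of all genes tested were called, 4.39% lower and 4.07% higher. With AH609, 4 members were lower and 0 higher, or 7.14% against 2.62% of all genes, 1.14% lower and 1.48% higher. With AH236, 9 members were lower and 1 higher, or 17.9% where 10.3% of all genes were called, 4.1% lower and 6.17% higher. At an unadjusted p under 0.05 the edgeR test marked 16, 9 and 19 members, and DESeq2 called 6, 4 and 10. Here and below, shares of all genes were not taken for unadjusted p, DESeq2 or other fits. Nothing about the members is read from those counts. For the 56 members the median log2 fold change was -0.24 (IS141), -0.17 (AH609) and -0.33 (AH236), while the median of all genes tested was -0.01, -0.0013 and -0.01. Estimates were below 0 in 45, 44 and 48 of the 56 members, in the same order. Of all genes tested, 51.7%, 50.4% and 51.6% had estimates below 0. The rule leans on the agent libraries, so the direction in the members is not wholly independent of it.

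Among the genes chosen with DMSO and the agent weighing alike, 5 of 53 were called lower with IS141, 2 of 56 with AH609 and 6 of 58 with AH236, with 0, 0 and 1 called higher. Of all genes tested 8.47%, 2.62% and 10.3% were called, 4.39%, 1.14% and 4.1% lower. With counts this small, no excess of calls is read from the genes of the balanced choices. The median log2 fold changes of these genes were -0.29, -0.11 and -0.32. The direction of the medians was thus the same under the balanced choice, and for AH609 the count fell from 4 to 2. Single libraries also moved these counts. Without DMSO glutamate replicate 1, 3 members were called with IS141 and 5 with AH236, without AH236 glutamate replicate 3 there were 6 with AH236, and without DMSO medium replicate 1 in the shared fit there were 10 with IS141.

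**Figure D3:**
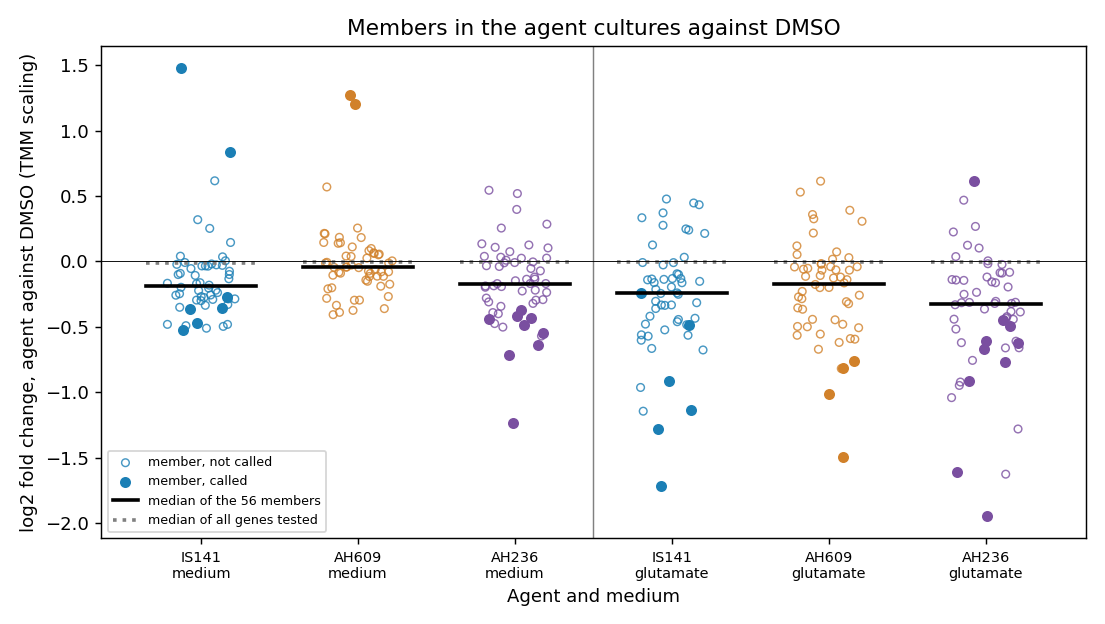
Log2 fold change of each of the 56 members, agent against DMSO (vertical axis, edgeR, TMM scaling), in medium (left) and in glutamate (right); filled points were called at an adjusted p under 0.05, black bars are medians of the members and dotted bars medians of all genes tested. The members' median is lowest for AH236 in glutamate, at -0.33, and closest to that of all genes for AH609 in medium, at -0.04.

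Members 18 and 35, both abundant, were the only ones called lower with all 3 agents in glutamate in the shared edgeR fit. Both met the rule through their low values in the agent libraries, so their p-values below are not independent support for a difference. Member 18 is ENSRNOG00000029264. In glutamate its 3 DMSO libraries were at 18.6, 23.6 and 18.3 CPM. The IS141 libraries were at 5.73, 6.11 and 6.32 CPM, the AH609 libraries at 8.37, 5.82 and 6.73 CPM, and the AH236 libraries at 5.54, 4.18 and 5.05 CPM. All 9 agent libraries were far below the DMSO libraries, and none overlapped with them. In medium the DMSO libraries were at 28.6, 58.9 and 63.6 CPM, the IS141 libraries at 53.7, 47.1 and 54.5 CPM, the AH609 libraries at 49.0, 48.4 and 38.9 CPM and the AH236 libraries at 41.8, 43.9 and 42.0 CPM. The low DMSO value in medium, 28.6 CPM, was replicate 1, the library that stands apart, and without it the DMSO libraries lay above all others.

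The fall of member 18 in glutamate was thus to 0.400 of the medium level in DMSO cultures, and to 0.117, 0.154 and 0.116 in IS141, AH609 and AH236 cultures. The DMSO ratio was 0.329 without DMSO medium replicate 1. In glutamate it was lower than in DMSO by a log2 fold change of -1.72 ± 0.25 (SE) with IS141 (edgeR adjusted p = 0.00055), -1.50 ± 0.25 (SE) with AH609 (edgeR adjusted p = 0.00331) and -1.95 ± 0.26 (SE) with AH236 (edgeR adjusted p = 0.00017). In medium no agent differed from DMSO by the test, with log2 fold changes of 0.04, -0.11 and -0.19 (95% intervals -0.39 to 0.47, -0.54 to 0.32 and -0.62 to 0.24). Without DMSO medium replicate 1 member 18 was called lower in medium with AH609, at -0.40 (adjusted p = 0.0265), and with AH236, at -0.47 (adjusted p = 0.00555).

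The glutamate effect on member 18 differed from that in DMSO by -1.76 ± 0.32 (SE, log2) for IS141 (edgeR adjusted p = 0.0126) and by -1.76 ± 0.33 (SE) for AH236 (edgeR adjusted p = 0.015). Both differences were smaller without DMSO medium replicate 1, at -1.47 and -1.47, and were called (adjusted p = 6.09e-06 and 3.78e-05). For AH609 the difference of -1.39 ± 0.32 (SE) was not called (edgeR adjusted p = 0.228). It was called without DMSO medium replicate 1, at -1.10 (adjusted p = 0.00081), and with DESeq2 (adjusted p = 0.012), while with any other library left out its adjusted p lay between 0.108 and 0.49. With only the compared groups in the fit, the differences for IS141 and AH236 were not called (adjusted p = 0.223 and 0.152).

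Member 35 is ENSRNOG00000054314. In glutamate its DMSO libraries were at 26.4, 23.4 and 23.5 CPM. The IS141 libraries were at 9.40, 10.97 and 12.5 CPM, the AH609 libraries at 13.9, 10.3 and 11.3 CPM, and the AH236 libraries at 7.38, 7.49 and 7.80 CPM. Here too every agent library was below every DMSO library, and the AH236 libraries were below all others. In medium the DMSO libraries were at 67.1, 76.9 and 74.2 CPM, those of IS141 at 64.8, 56.1 and 72.8 CPM, those of AH609 at 60.6, 64.0 and 59.9 CPM, and those of AH236 at 45.04, 46.8 and 42.8 CPM. Only AH236 stood clear of all 3 other treatments in medium.

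In glutamate, member 35 was lower than in DMSO by -1.14 ± 0.10 (SE, log2) with IS141 (edgeR adjusted p = 4.44e-07), by -1.02 ± 0.10 (SE) with AH609 (edgeR adjusted p = 7.6e-06) and by -1.61 ± 0.11 (SE) with AH236 (edgeR adjusted p = 1.67e-09). In medium it was lower with AH236, by -0.64 ± 0.09 (SE; edgeR adjusted p = 5.55e-05). It was not called with IS141, at -0.17 (95% interval -0.35 to 0.01), or with AH609, at -0.20 (95% interval -0.38 to -0.02; edgeR adjusted p = 0.247).

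For member 35 the difference between glutamate effects was called for all 3 agents, with the same limit from its choice. The difference was -0.97 ± 0.13 (SE, log2) for IS141 (edgeR adjusted p = 0.00059), -0.81 ± 0.13 (SE) for AH609 (edgeR adjusted p = 0.0153) and -0.97 ± 0.14 (SE) for AH236 (edgeR adjusted p = 0.000989). For AH609 only 4 of the 15908 genes tested were called in this comparison, 2 higher and 2 lower. The AH609 call was lost without AH609 medium replicate 3, DMSO glutamate replicate 1 or AH609 glutamate replicate 3 (adjusted p = 0.0544, 0.0729 and 0.0885), and with only the compared groups in the fit (0.0845).

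Members 18 and 35 illustrate how the agents entered the choice. Over the libraries of DMSO and 1 agent, the ratio of member 18 was 0.257 (IS141), 0.283 (AH609) and 0.2697 (AH236), and that of member 35 was 0.257, 0.27 and 0.272. Neither would have been a member under any of these balanced choices. Both met the rule through their low values in the agent libraries, and their tests against DMSO draw on those values. Adjustment over all 15908 genes does not remove that choice, so their p-values are not independent support for a difference. In the tests of the difference between glutamate effects, 2 members were called for IS141, both lower, where 0.779% of all genes were called, 0.22% higher and 0.559% lower. For AH609 it was 1 member against 0.0251% of all genes, 0.0126% in each direction. For AH236 it was 2 members against 1.54%, 0.88% higher and 0.66% lower. Among the genes of the balanced choices edgeR called 0 for each agent, with 5, 5 and 9 at an unadjusted p under 0.05, and DESeq2 called 2, 1 and 0. Without DMSO medium replicate 1, 3 members were called for AH609, and without AH609 medium replicate 3, DMSO glutamate replicate 1 or AH609 glutamate replicate 3 there were 0. With only the compared groups in the fit the counts were 1, 0 and 1, with 4, 6 and 7 members at an unadjusted p under 0.05, and DESeq2 called 3, 3 and 2. Shares of all genes were not taken for these alternatives, and nothing is read from their counts.

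**Figure D4:**
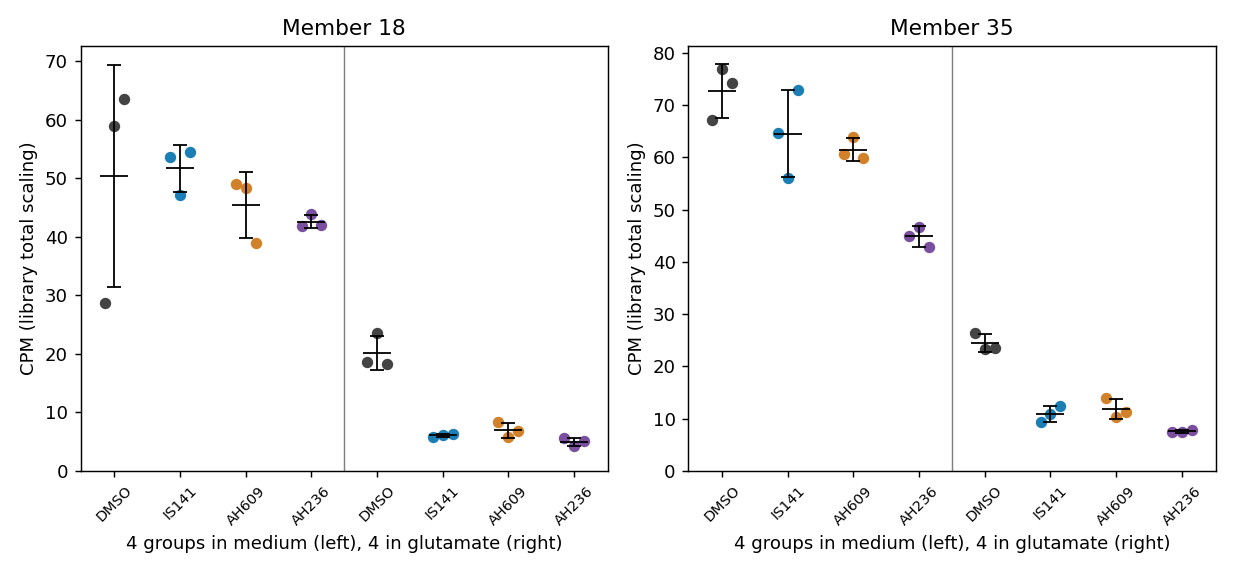
CPM (vertical axis, from 0) of members 18 and 35 in each library, by treatment in medium (left of the line) and in glutamate (right of it); points are libraries and bars are the mean ± SD of 3. In glutamate the DMSO libraries lie between 18.3 and 26.4 CPM, above all 9 agent libraries, which lie at or below 13.9 CPM.

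Members 38 and 22 were the others called with more than 1 agent in glutamate. Member 38 had 6.65 ± 0.513 CPM (SD, n = 3) with DMSO in glutamate, 3.49 ± 0.359 CPM with IS141, 3.82 ± 0.528 CPM with AH609 and 5.83 ± 1.06 CPM with AH236. It was lower with IS141, by -0.91 ± 0.13 (SE, log2; edgeR adjusted p = 0.00011), and with AH609, by -0.76 ± 0.13 (SE; edgeR adjusted p = 0.00135). With AH236 the difference was -0.12 (95% interval -0.37 to 0.13). In medium it had 26.7 ± 2.25 CPM (SD, n = 3) with DMSO, and was lower with IS141 and AH236, by -0.52 ± 0.10 and -0.44 ± 0.10 (SE; edgeR adjusted p = 0.00149 and 0.00453). Its difference in glutamate effect was not called for any agent.

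Member 22 had 4.95 ± 0.821 CPM (SD, n = 3) with DMSO in glutamate, 2.76 ± 0.152 CPM with AH609 and 2.502 ± 0.273 CPM with AH236. Its ratio was 0.307 in DMSO cultures and 0.163, 0.154 and 0.225 in IS141, AH609 and AH236 cultures. It too met the rule through the agent libraries, and its p-values below are not independent support for a difference. It was lower with AH236 by -0.91 ± 0.20 (SE, log2; edgeR adjusted p = 0.00587) and with AH609 by -0.82 ± 0.20 (SE; edgeR adjusted p = 0.0291). The AH609 call was lost without any 1 of DMSO glutamate replicates 1 and 3 and AH609 glutamate replicates 1, 2 and 3 (adjusted p from 0.067 to 0.128). With IS141 it had 3.29 ± 0.439 CPM and was not called (-0.57; edgeR adjusted p = 0.0696). In medium it was also lower with AH236, at 11.1 ± 0.743 CPM against 16.2 ± 4.12 CPM (SD, n = 3) with DMSO, by -0.48 ± 0.15 (SE; edgeR adjusted p = 0.045). Over all members, 5 had every DMSO library above every agent library in glutamate, members 5, 18, 22, 35 and 45, which is 8.93% of members where 6.93% of genes with at least 1 CPM in medium did so. The reverse order held for 0 members and 2.83% of genes. In medium 2 members, 38 and 48, had every DMSO library on top, where 4.51% of genes did.

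Member 8 was called lower with IS141 in glutamate by -1.28 ± 0.40 (SE, log2; edgeR adjusted p = 0.0481). Its libraries held 7, 4 and 7 counts with IS141 and 19, 10 and 20 counts with DMSO. The call was lost without any 1 of 5 of the 6 libraries compared (adjusted p from 0.0774 to 0.177). Member 2 had a difference of -1.63 ± 0.69 (SE) with AH236 that was not called (edgeR adjusted p = 0.147), at 1 to 4 counts per AH236 library.

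Member 4 was the single member called higher with an agent in glutamate. With AH236 its libraries were at 1.70, 1.88 and 1.48 CPM, and with DMSO at 1.15, 1.04 and 1.26 CPM, so the groups did not overlap. The log2 fold change was 0.61 ± 0.19 (SE; edgeR adjusted p = 0.0393). The call was lost without any 1 of the 6 libraries compared and under scaling by library totals (adjusted p from 0.0552 to 0.13 and 0.0654).

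In medium the members were called in both directions. With IS141, 5 members were lower and 2 higher, or 12.5%, where 7.98% of all genes were called, 3.5% lower and 4.48% higher. With AH609, 0 were lower and 2 higher, or 3.57% where 3.06% of all genes were called, 0.849% lower and 2.21% higher. With AH236, 9 were lower and 0 higher, or 16.1% where 10.5% of all genes were called, 4.95% lower and 5.55% higher. At an unadjusted p under 0.05 the edgeR test marked 19, 6 and 14 members. The median log2 fold changes of the 56 members were -0.19, -0.04 and -0.17, against -0.01, -0.01 and -0.01 for all genes. Fits of the compared groups alone called 0, 0 and 3 members, with 16, 4 and 14 at an unadjusted p under 0.05, and DESeq2 called 6, 1 and 9. Shares of all genes were not taken for these counts or for the unadjusted ones above. Among the genes of the balanced choices 5 of 53, 1 of 56 and 6 of 58 were called, 4, 0 and 6 of them lower. That is beside the 7.98%, 3.06% and 10.5% of all genes, and no excess of calls is read from it.

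Members 9 and 32 were the ones called higher with an agent in medium. Member 9 had 0.593, 0.308 and 0.700 CPM in the DMSO libraries, 1.47, 1.67 and 1.37 CPM with IS141, 1.18, 1.29 and 1.34 CPM with AH609, and 0.889, 0.749 and 0.639 CPM with AH236. All IS141 and AH609 libraries were above all DMSO libraries, and the AH236 libraries overlapped with DMSO. Member 9 reached 1 CPM in medium through its IS141 and AH609 libraries, with means of 1.50 and 1.27 CPM. With DMSO and AH236 the means were 0.533 and 0.759 CPM. The p-values of member 9 below are thus not independent support for a difference. It was higher with IS141 by 1.48 ± 0.28 (SE, log2; edgeR adjusted p = 0.00148) and with AH609 by 1.27 ± 0.29 (SE; edgeR adjusted p = 0.0133). The AH609 call was lost without DMSO medium replicate 2 or AH609 medium replicate 3 (adjusted p = 0.0513 and 0.0524). Both were lost with only the compared groups in the fit (adjusted p = 0.0981 and 0.259).

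Member 32 had 1.56, 2.27 and 2.37 CPM in the DMSO libraries in medium, 4.11, 3.46 and 3.47 CPM with IS141, 5.28, 4.47 and 4.18 CPM with AH609, and 3.08, 2.55 and 2.92 CPM with AH236. Every agent library was above every DMSO library, which held for 1 member and for 2.46% of genes with at least 1 CPM in medium. The ratio of member 32 was 0.334 in DMSO cultures and 0.235, 0.180 and 0.174 in IS141, AH609 and AH236 cultures. It thus met the rule through the agent libraries, and its p-values below are not independent support for a difference. It was higher with AH609 by 1.20 ± 0.23 (SE, log2; edgeR adjusted p = 0.00258) and with IS141 by 0.84 ± 0.23 (SE; edgeR adjusted p = 0.0234), a call that was lost without IS141 medium replicate 1 or 2 (adjusted p = 0.0913 and 0.0575). With only the compared groups in the fit neither was called (adjusted p = 0.117 for AH609 and 0.123 for IS141). With AH236 it was not called (0.52; 95% interval 0.05 to 0.99). In glutamate members 9 and 32 were not called with any agent, and member 9 had only 5.17 counts per glutamate library.

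Member 28 shows what 1 library can do. Its DMSO libraries in medium were at 3.41, 1.15 and 1.23 CPM, with replicate 1 the high one. It was called lower with AH236 in medium, at 0.616, 0.869 and 0.852 CPM, by -1.23 ± 0.33 (SE, log2; edgeR adjusted p = 0.0172). Without DMSO medium replicate 1 the difference was -0.56 (adjusted p = 0.281), and without AH236 medium replicate 1 it was -1.10 (adjusted p = 0.0864). Over all members, DMSO medium replicate 1 differed from the mean of the other DMSO medium libraries by a median log2 ratio of 0.07, with quartiles at -0.32 and 0.35, against a median of 0.02 and quartiles at -0.16 and 0.20 for genes with at least 1 CPM in medium.

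Without DMSO medium replicate 1, 10 members were called with IS141 in medium and 4 with AH609. Other single libraries lowered the counts in medium. Without IS141 medium replicate 1 or 2, 3 members were called with IS141, without AH609 medium replicate 3, 1 with AH609, and without AH236 medium replicate 1, 4 with AH236.

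The agents were also compared with one another over both media, with comparisons added after the data had been seen. Each agent weighs alike in the rule, so these do not share its lean towards the agents. AH236 and IS141 differed in 12 members, 6 higher and 6 lower with AH236, or 21.4% where 15.9% of all genes were called, 9.47% higher and 6.47% lower. The largest of these differences was in member 28, which was lower with AH236 by -1.41 ± 0.29 (SE, log2; edgeR adjusted p = 0.00184). Member 35 was lower with AH236 than with IS141 by -0.47 ± 0.07 (SE; edgeR adjusted p = 0.000108), and member 38 was higher by 0.44 ± 0.08 (SE; edgeR adjusted p = 0.000839). The median over members was -0.03. Without IS141 glutamate replicate 3, 7 members were called.

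AH609 and IS141 differed in 3 members, all higher with AH609, or 5.36% against 2.66% of all genes, 1.71% higher and 0.949% lower. They were member 45 and both of the most abundant members. Member 56 was higher by 0.21 ± 0.04 (SE, log2; edgeR adjusted p = 0.0135) and member 30 by 0.26 ± 0.07 (SE; edgeR adjusted p = 0.0419). The count was 1 or 0 without any 1 of 8 of the 12 libraries compared, and 5 without DMSO medium replicate 1.

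AH236 and AH609 differed in 4 members, all lower with AH236, or 7.14% against 0.698% of all genes, 0.371% higher and 0.327% lower. Member 35 differed by -0.52 ± 0.07 (SE, log2; edgeR adjusted p = 0.000575) and member 54 by -0.41 ± 0.07 (SE; edgeR adjusted p = 0.00314). Member 54 had 69.5 ± 3.48 CPM (SD, n = 3) with DMSO in medium, 57.4 ± 6.50 CPM with IS141, 64.1 ± 3.70 CPM with AH609 and 49.9 ± 4.06 CPM with AH236. In glutamate it had 14.9 ± 1.70 CPM with IS141, 16.2 ± 1.14 CPM with AH609 and 11.2 ± 1.43 CPM with AH236. The count was 2 without any 1 of 7 of the 12 libraries compared. Member 18 was not called between any 2 agents in the shared fit, with intervals of -0.33 to 0.40 for AH609 against IS141, -0.61 to 0.15 for AH236 against IS141 and -0.64 to 0.11 for AH236 against AH609 (log2, 95%). It was called lower with AH236 than with IS141 when only those groups were fitted, at -0.23 (adjusted p = 0.00799).

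The order of the 4 treatments by mean CPM was uneven over the members. In glutamate DMSO was the highest of the 4 in 37 members, or 66.1%, where it was the highest in 41.4% of genes with at least 1 CPM in medium. AH236 was the lowest in 32 members, or 57.1%, against 44.4%. In medium DMSO was the highest in 33 members, or 58.9% against 39.95%, and AH236 the lowest in 28, or 50% against 37.5%. These orders are on library totals, on which the median of all genes with AH236 lay at -0.07 (log2) to DMSO in medium and -0.08 in glutamate, and the order in glutamate shares the rule's lean towards the agents.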

How the data were processed

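Per the labels' protocols, RNeasy Mini columns gave the total RNA and a directional NEBNext Ultra II kit the 24 libraries. The authors deposited raw counts, 1 whole number for each Ensembl rat gene ID and library. The submitters' processing notes name STAR 2.7.8a, RSEM 1.3.3, cutadapt 2.3, FastQC 0.11.8 and bcl2fastq, and the build Rnor_6.0. The role of each and the annotation release are not stated there, and the counts may be rounded RSEM estimates. Library totals ran from 22509400 to 35496447, and counting error limits the members under about 30 counts. Columns were matched to samples by description and groups taken from titles; the later of a pair of AH236 glutamate libraries titled with the number 2 is called replicate 3.

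Members were chosen on CPM from library totals. The tests used edgeR 4.0.16 under R 4.3.3 (filterByExpr, TMM, robust quasi-likelihood F test, 1 mean per group, 24 libraries, 12 comparisons); the common biological coefficient of variation was 7.49%. Standard errors were taken as the fold change over the root of the F statistic. No label says that replicates were separate cultures, so p-values cover only the variation among these libraries, possibly technical. The test was tried on simulated data. The alternatives were DESeq2 1.42.0, other scalings, filters, fits and libraries left out. No gene ID could be matched to a symbol (0 of 32754), so the 30 gene lists, the promoter motifs and the naming rule by symbol gave no result; by that rule at most 2 IDs are printed, and the 2 were picked after their values were seen, among members called with a change of at least 1.5-fold. The members, lists and tests were chosen with earlier results of these data known.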

Additional observations from a re-analysis of the deposited data

Results flagged for a closer look

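The test of the difference between glutamate effects marked 2 members, in 5 comparisons. In each, the estimated fall in glutamate was larger with the agent than with DMSO. Both members met the rule through low values in the agent libraries: with DMSO and 1 agent weighing alike neither would have been a member, and edgeR called 0 of the genes so chosen for any agent (5, 5 and 9 at an unadjusted p under 0.05; DESeq2 called 2, 1 and 0). These differences are therefore not independent of the choice. For member 18 the log2 difference was -1.76 for IS141 and -1.76 for AH236. Without DMSO medium replicate 1 both were -1.47. For member 35 it was -0.97 for IS141, -0.81 for AH609 and -0.97 for AH236. The 3 agents share the DMSO libraries, so these are not independent of one another. In both members the DMSO libraries in glutamate were above all 9 agent libraries.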

How the results depend on the processing

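No result changed direction under any alternative where it was called. Counts of members depend on scaling and thresholds: the rule gave 32 genes on TMM-scaled library sizes, 31 on DESeq2-type (RLE) size factors, 17 at a ratio of at most 0.2, 123 at 0.3 and 23 when each of the 4 treatments had to pass, and 53 to 65 with 1 library left out. With only the compared groups in the fit, members called against DMSO in medium went from 7, 2 and 9 (IS141, AH609, AH236) to 0, 0 and 3, those for the difference of glutamate effects from 2, 1 and 2 to 1, 0 and 1, and those for AH609 against IS141 from 3 to 5. DESeq2 called 1 for AH609 in medium, where it gave member 9 no adjusted p, and 3 for its difference of glutamate effects. With genes chosen in DMSO and the agent alone, AH609 had 1 in medium and 2 in glutamate, and each difference had 0. Fits of the compared groups alone held fewer libraries, and the causes of these changes were not tested.

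With 1 library left out, members called against DMSO in medium ranged from 3 to 10 for IS141, 1 to 4 for AH609 and 4 to 9 for AH236. In glutamate they ranged from 3 to 10, 3 to 6 and 5 to 10. Differences of glutamate effects ranged from 2 to 3, 0 to 3 and 2 to 3. Between agents the ranges were 0 to 5 for AH609 against IS141, 7 to 14 for AH236 against IS141 and 2 to 5 for AH236 against AH609.

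The numbers in the titles showed no pairing of the samples. AH236 glutamate replicates 2 and 3 both carry the number 2. Over 84 pairs of libraries with the same title number in different groups, deviations from group means correlated with a median r of 0.0037. Over 168 pairs with different numbers the median r was 0.0011, and 8 of 24 libraries correlated best with their own number. With the title number as a replicate block, 7, 2 and 9 members were called in medium, 6, 4 and 9 in glutamate, 3, 1 and 2 for the differences, and 3, 11 and 3 between agents (AH609 against IS141, AH236 against IS141, AH236 against AH609). Depth limits the scarce members most, since 32 had under 30 counts per glutamate library.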
